A study of Homo sapiens with 20 samples.

Results

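The genes described here were 10 heat shock chaperone and cochaperone genes, HSPA1A, HSPA1B, HSPA8, DNAJB1, DNAJA1, HSPH1, BAG3, HSP90AA1, HSP90AB1 and HSPB1, out of 19962 genes in a table of counts. They were chosen by name as known targets of the transcription factor HSF1, and the rule uses no measured value. Of the 10, 9 had a count in at least 1 library and 8 passed the filter on low counts. HSPA1A had 0 counts in all 20 libraries.

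The counts came from PAR-CLIP of the RNA-binding protein IGF2BP3. In this method cells take up the uridine analogue 4-thiouridine, ultraviolet light crosslinks it to protein nearby, an antibody recovers the protein with its RNA, and a crosslink shows up in the sequence as a T-to-C conversion. HCT116, an established line from a human colorectal carcinoma, was used in a derivative that conditionally expresses Tet-OsTIR1, and all groups shared it. All groups also shared 100 µM 4-thiouridine for 15 h and crosslinking at 365 nm with 0.15 J/cm2. Tunicamycin (TM), which blocks N-glycosylation in the endoplasmic reticulum, was applied at 5 µg/mL for 1 h or 4 h, per the sample labels, against DMSO at 1:1000 for 4 h, so the 1 h libraries have no vehicle of their own duration. The treatment protocol names the 4 h time alone. The arsenic compound, named arsenite in the titles and arsenate in the protocol, was applied at 250 µM for 2 h against PBS at 1:1000. Each of these 5 conditions had 3 libraries made with the anti-IGF2BP3 antibody and 1 made with control IgG. Nothing in the labels states that the 3 libraries of a condition came from separate cultures, so p-values measure the spread between these libraries, which may be technical.

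The anti-IGF2BP3 libraries held 130478 to 1568406 gene counts and the IgG libraries 5981 to 17503. PBS replicate 2 was the shallowest anti-IGF2BP3 library. Replicates 1 and 2 of the TM groups and their replicate 3 belong to different library sets, and PBS and arsenite to another, so a level in PBS or arsenite set beside one in DMSO or TM also compares library sets. All 6 epithelial markers looked up (EPCAM, KRT8, KRT18, KRT19, CDH1 and CLDN4) had cluster reads, 1180 in total, and all 11 markers of fibroblasts, leukocytes and endothelium had 0. Recovery of an RNA depends on its abundance in the cell as well as on binding, and these cannot be told apart here.

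HSF1 is the main activator of the heat shock response. When unfolded proteins accumulate in the cytosol it forms trimers, binds inverted repeats of GAA called heat shock elements, and drives transcription of chaperone genes. The HSP70 proteins HSPA1A, HSPA1B and HSPA8 bind unfolded stretches of protein. The J-domain proteins DNAJB1 and DNAJA1 deliver clients to them and stimulate their ATPase, and HSPH1 and BAG3 release their nucleotide. HSP90AA1 and HSP90AB1 are the stress-inducible and the constitutive cytosolic HSP90, and HSPB1 is a small heat shock protein that holds unfolded proteins. Endoplasmic reticulum stress is known mainly for a separate program, the unfolded protein response, and arsenite is a classical trigger of the heat shock response.

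The promoters were read first, because the heat shock element is what these genes are known to share. The motif searched was 3 alternating units with any 2 bases between them, either GAA, TTC and GAA or TTC, GAA and TTC. Each is the reverse complement of the other, so both strands were covered. It was present in 172 of 35116 RefSeq promoter windows of 300 bases in GRCh38.p14 (250 before and 50 after the start), a share of 0.49%. All 10 genes had at least 1 window, 15 in all, and 4 of these windows, in 4 genes, held the motif, with its letters in capitals here.

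HSPA8, chr11:123062167-123062203, minus strand: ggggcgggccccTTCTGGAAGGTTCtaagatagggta
HSP90AA1, chr14:102087108-102087144, minus strand: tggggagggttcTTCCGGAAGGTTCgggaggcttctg
HSP90AB1, chr6:44247819-44247855, plus strand: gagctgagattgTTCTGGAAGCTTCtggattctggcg
DNAJA1, chr9:33025264-33025300, plus strand: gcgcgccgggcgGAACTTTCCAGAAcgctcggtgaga

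The HSPA8, HSP90AA1 and HSP90AB1 sites lay 55, 88 and 112 bases upstream of an alternative start inside the gene span. The DNAJA1 motif lay just downstream of the gene's start, which falls in the flanking bases printed before it. HSPA8 and HSP90AB1 each held another match in the same window. With 1 of the 9 fixed bases allowed to differ, 9 of the 15 windows, in 8 of the 10 genes, held a match, where 6.24% of all windows did. BAG3 and HSPH1 held none at either setting, and DNAJB1 held none without a mismatch. These are matches of letters in a short window and show no binding.

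Under arsenite the chaperone RNAs were recovered in larger amounts. Of the 8 genes tested, 7 rose, from 12.6-fold for DNAJB1 and 6.32-fold for BAG3 to 1.27-fold for HSP90AB1 (edgeR's quasi-likelihood test, Benjamini-Hochberg adjusted over 6642 genes, threshold 0.05). None fell. Over all genes tested 17.6% were higher and 17.1% lower, so a call by itself was common in this comparison. The median log2 fold change was 1.19 over the 8 genes and -0.0013 over all genes. The CPM values of arsenite and PBS did not overlap for 8 of the 8, where 43.7% of all genes showed no overlap in one or the other direction. CPM is the count scaled to library size after TMM scaling of the 15 anti-IGF2BP3 libraries to each other.

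DNAJB1 (ENSG00000132002, chr19:14514769-14560391, minus strand), the J-domain protein that works with HSP70 in refolding and disaggregation, moved furthest. Its CPM were 214, 215 and 183 in PBS and 2563, 2447 and 2608 in arsenite. Every arsenite library lay far above every PBS library, and both groups were tight. The log2 fold change was 3.66 (SE 0.09, adjusted p = 4.71e-80), a p-value that ranked 3 among all genes tested. In raw counts the PBS libraries held 88, 27 and 72 and the arsenite libraries 1010, 1461 and 2765.

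BAG3 (ENSG00000151929, chr10:119651380-119677819, plus strand), a cochaperone that links HSP70 to autophagy, had 70.7, 103 and 84.1 CPM in PBS and 500, 516 and 516 CPM in arsenite. The arsenite values were almost equal to each other and far above the PBS range. Its log2 fold change was 2.66 (SE 0.15, adjusted p = 1.89e-37). HSPH1 (ENSG00000120694, chr13:31134973-31162388, minus strand), an HSP110 that serves as nucleotide exchange factor for HSP70, was at 178, 119 and 189 CPM in PBS and at 480, 568 and 466 CPM in arsenite. Its log2 fold change was 1.53 (SE 0.12, adjusted p = 2.48e-22), and the lowest arsenite value stood well clear of the highest PBS value.

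HSPA8 (ENSG00000109971, chr11:123057489-123062462, minus strand), the constitutive HSP70, had 402, 294 and 316 CPM in PBS against 779, 770 and 883 CPM in arsenite, a log2 fold change of 1.23 (SE 0.10, adjusted p = 2.79e-23). HSP90AA1 (ENSG00000080824, chr14:102080742-102139749, minus strand) had 1214, 1502 and 1220 CPM in PBS against 2837, 2949 and 2684 CPM in arsenite, a log2 fold change of 1.15 (SE 0.07, adjusted p = 3.07e-36). In both genes the groups were apart by more than their whole internal range. HSP90AB1 (ENSG00000096384, chr6:44246194-44253883, plus strand) had 724, 834 and 744 CPM in PBS and 962, 941 and 966 CPM in arsenite. Its log2 fold change was 0.35 (SE 0.08, adjusted p = 1.68e-04). This was the smallest of the 7 changes that passed.

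DNAJA1 (ENSG00000086061, chr9:33025273-33039907, plus strand), the other J-domain protein, had 90.2, 111 and 84.1 CPM in PBS and 147, 149 and 128 CPM in arsenite. The log2 fold change was 0.62 (SE 0.19, adjusted p = 0.00697). This call was lost with DESeq2 (adjusted p = 0.0757) and without PBS replicate 3 (adjusted p = 0.0676), in a range of 0.00317 to 0.0757 over the alternatives. HSPB1 (ENSG00000106211, chr7:76302673-76304292, plus strand) had 60.9, 71.5 and 56.1 CPM in PBS and 104, 77.0 and 76.4 CPM in arsenite. It did not pass the test (log2 fold change 0.45, SE 0.24, adjusted p = 0.134), though its groups did not overlap, and it rested on 9 to 81 counts per library.

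HSPA1A (ENSG00000204389, chr6:31815543-31817942, plus strand) and HSPA1B (ENSG00000204388, chr6:31827738-31830254, plus strand) are near-identical copies of the strongly inducible HSP70 gene. HSPA1B had 5, 7 and 6 counts in the arsenite libraries and 0 in all 3 PBS libraries. It had 1 count in each of DMSO replicate 1, TM 1 h replicate 2 and TM 4 h replicate 3 and 0 in the other anti-IGF2BP3 libraries of those groups. The arsenite counts came to 8.43 CPM of the group's raw total of 2135997. This was 2.69-fold higher than the 3.13 CPM that a floor of 3 counts over the PBS group's 957736 allows. The counting error of the arsenite counts and the spread between libraries are left out, so 2.69 is not a lower bound. The gene was below the filter on low counts, and without that filter its adjusted p was 0.0125 by the edgeR test. No cluster was called on either copy. Reads that fit both copies equally cannot be placed on one of them, and how the authors counted such reads is not given in the sources used here, so both genes' counts are uncertain.

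**Figure D1:**
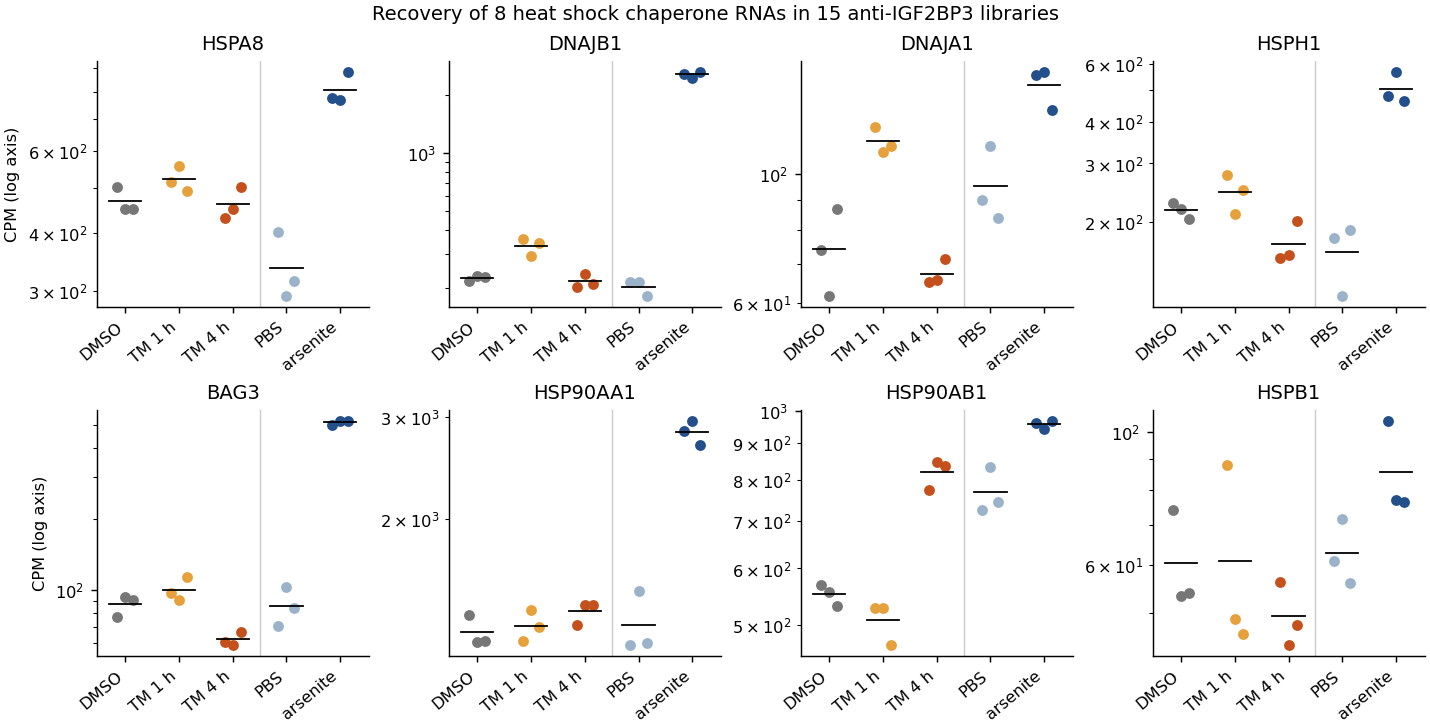
Recovery of 8 chaperone RNAs in CPM (log axis, with its own range in each panel) for each of the 15 anti-IGF2BP3 libraries, with dots for libraries and bars for the mean of 3; the grey line separates the TM groups from the PBS and arsenite groups. DNAJB1 and BAG3 stand apart in arsenite, with means of 2539 and 511 CPM against 204 and 86.0 CPM in PBS, and HSP90AB1 is the gene that is higher at TM 4 h than in DMSO.

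At 1 h of tunicamycin, set against 4 h of DMSO, 1 of the 8 genes passed the test. DNAJB1 rose 1.45-fold, against 0.144% of 8343 genes called higher and 0.408% called lower. Its CPM were 217, 232 and 228 in DMSO and 361, 293 and 342 in TM 1 h, with no overlap between the groups. The log2 fold change was 0.54 (SE 0.11, adjusted p = 0.00331 by the edgeR test). The call was lost in 4 of 16 alternatives, over which the adjusted p ran from 0.000563 to 0.953. It was lost with DESeq2 (adjusted p = 0.0939), without TM 1 h replicate 3 (adjusted p = 0.133), within the library set of replicates 1 and 2 (adjusted p = 0.207) and on reads in clusters, while the log2 fold change stayed at 0.48 to 0.76.

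DNAJA1 was higher than DMSO by about as much, with 74.1, 61.9 and 86.9 CPM in DMSO and 120, 109 and 111 CPM in TM 1 h. Its groups did not overlap either, but the difference did not pass (log2 fold change 0.57, SE 0.17, adjusted p = 0.132). HSP90AB1 was the remaining gene without overlap, making 3 of 8 against 15.3% of all genes, and its difference was small and did not pass (log2 fold change -0.14, SE 0.09, adjusted p = 0.667). The other 5 genes had log2 fold changes between -0.11 and 0.22 with adjusted p-values of 0.588 or more. The median was 0.17 over the 8 and 0.0020 over all genes.

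At 4 h of tunicamycin a different gene passed. HSP90AB1 rose 1.49-fold and was the 1 of the 8 called, where 2.79% of all genes were higher and 2.31% lower than DMSO. Its CPM were 568, 557 and 532 in DMSO and 773, 846 and 837 in TM 4 h, with a wide gap between the groups. The log2 fold change was 0.58 (SE 0.08, adjusted p = 2.41e-07). With reads in clusters as the measure the gene did not pass (log2 fold change 0.65, adjusted p = 0.716, the highest of its alternatives, which began at 1.26e-08). HSP90AA1, its close paralogue, had 1366, 1226 and 1231 CPM in DMSO and 1315, 1419 and 1421 CPM in TM 4 h, which overlapped (log2 fold change 0.13, SE 0.07, adjusted p = 0.366).

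BAG3 had 76.8, 93.9 and 91.0 CPM in DMSO and 60.7, 59.0 and 67.0 CPM in TM 4 h. The groups were apart, but the difference missed the threshold (log2 fold change -0.50, SE 0.16, adjusted p = 0.0584). It passed in the fit of all 15 libraries (adjusted p = 0.0376) and without DMSO replicate 1 (adjusted p = 0.0391), in a range of 0.0376 to 0.303. HSPH1 had a log2 fold change of -0.27 (SE 0.12, adjusted p = 0.190), with groups that did not overlap. In all, 3 of 8 genes showed no overlap, against 20.5% of all genes. DNAJB1 was back at 202, 237 and 211 CPM, within a log2 fold change of -0.07 (SE 0.11, adjusted p = 0.818) of DMSO. HSPA8, DNAJA1 and HSPB1 had log2 fold changes of 0.01, -0.14 and -0.25 with adjusted p-values of 0.592 or more, and the median was -0.10 over the 8 and 0.0037 over all genes.

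The 1 h and 4 h times were also compared directly. From 1 h to 4 h, 4 of the 8 genes fell and 1 rose, against 5.99% and 5.6% of all genes, and the median log2 change was -0.30 over the 8 and 0.011 over all genes. DNAJB1 fell by 0.61 on the log2 scale (SE 0.11, adjusted p = 3.27e-05), BAG3 by 0.72 (SE 0.17, adjusted p = 0.00207), DNAJA1 by 0.71 (SE 0.17, adjusted p = 0.00223) and HSPH1 by 0.45 (SE 0.12, adjusted p = 0.00777). These 4 are 2 J-domain proteins and 2 nucleotide exchange factors, all partners of HSP70. HSP90AB1 rose by 0.72 (SE 0.09, adjusted p = 2.55e-09). The CPM values did not overlap for these 5 genes, against 26.8% of all genes. Without TM 1 h replicate 3 the calls on BAG3 (adjusted p = 0.147, range 0.000814 to 0.17) and HSPH1 (adjusted p = 0.116, range 0.00212 to 0.116) were lost, which left 3 calls. BAG3 also lost its call within the library set of replicates 1 and 2 (adjusted p = 0.17). HSPA8, HSP90AA1 and HSPB1 had log2 changes of -0.15, 0.08 and -0.14 and did not pass, with adjusted p-values of 0.321 or more.

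Whether arsenite and 4 h of tunicamycin, each against its own vehicle, differed in their effect was tested as a difference of changes. Of the 8 genes, 6 had a larger change in arsenite and none a smaller one, against 8.57% and 9.74% of 7796 genes, and the median was 1.11 over the 8 and -0.018 over all genes. DNAJB1 led with a log2 difference of 3.72 (SE 0.14, adjusted p = 1.97e-33), the lowest p-value of all genes tested. It was followed by BAG3 at 3.15 (SE 0.22, adjusted p = 1.66e-19), HSPH1 at 1.80 (SE 0.18, adjusted p = 6.46e-13), HSPA8 at 1.21 (SE 0.14, adjusted p = 8.90e-11) and HSP90AA1 at 1.00 (SE 0.10, adjusted p = 2.71e-12). DNAJA1 passed with 0.75 (SE 0.25, adjusted p = 0.0277) and lost the call in 4 of 20 alternatives, with adjusted p-values from 0.0121 to 0.189. Those were DESeq2 and the fits without DMSO replicate 3, PBS replicate 1 or PBS replicate 3. HSP90AB1 was the gene with a difference of the other sign, -0.24 (SE 0.11, adjusted p = 0.137), and HSPB1 had 0.69 (SE 0.30, adjusted p = 0.103). Neither passed.

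**Figure D2:**
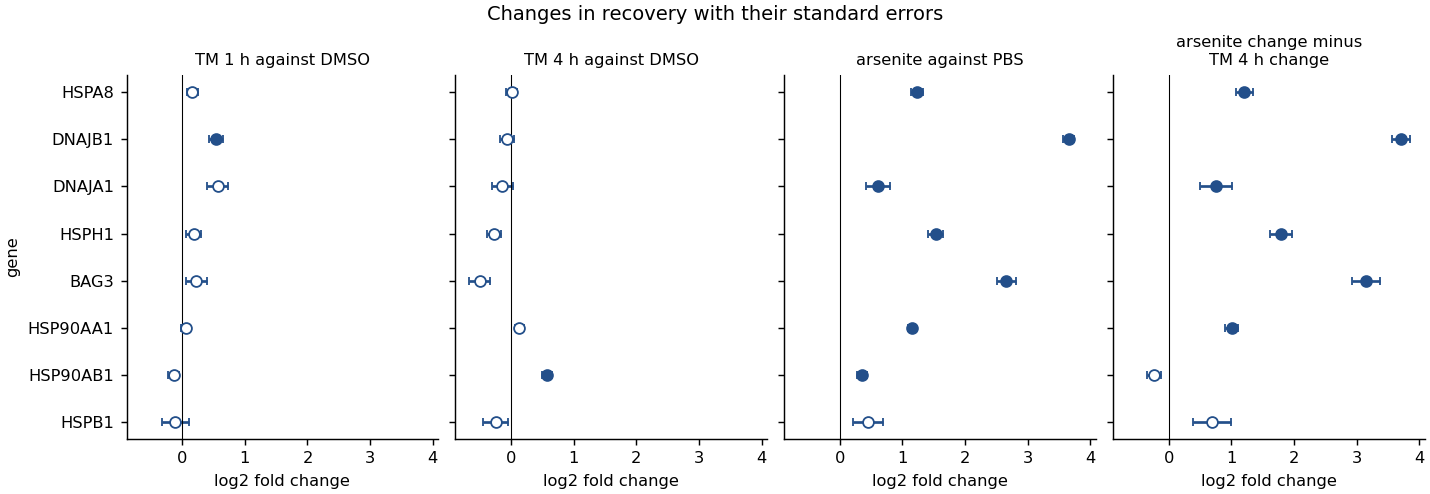
Log2 fold changes (x axis) of the 8 tested genes (y axis) in 4 comparisons, with bars of 1 standard error and filled points for an adjusted p under 0.05. The arsenite panel has 7 filled points, led by DNAJB1 at 3.66 and BAG3 at 2.66, while each tunicamycin panel has 1, DNAJB1 at 1 h and HSP90AB1 at 4 h.

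The control IgG libraries show what share these RNAs made up of the counts recovered without the anti-IGF2BP3 antibody. With 5981 to 17503 gene counts they were far smaller than the antibody libraries, and the 10 genes held 16 to 62 counts in each. The shares therefore compare the make-up of the libraries and not the amounts that came down. Together the 10 genes made up 0.803% ± 0.00472 (SD, n = 3) of the anti-IGF2BP3 counts in arsenite. The IgG share there was 0.609%, with an exact 95% binomial interval of 0.461% to 0.788%. In PBS the values were 0.293% ± 0.0179 for the antibody and 0.354% (0.272% to 0.454%) for IgG, and in TM 1 h 0.308% ± 0.00478 and 0.268% (0.153% to 0.434%). In DMSO the antibody share of 0.287% ± 0.0134 lay below the IgG interval (0.321% to 0.633% around 0.458%). So did the TM 4 h share of 0.316% ± 0.0174 (IgG 0.477%, 0.359% to 0.62%). The arsenite condition was thus the one of 5 in which the antibody libraries lay above the IgG interval. The intervals cover counting error only, with 1 IgG library per condition and no spread between IgG libraries.

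**Figure D3:**
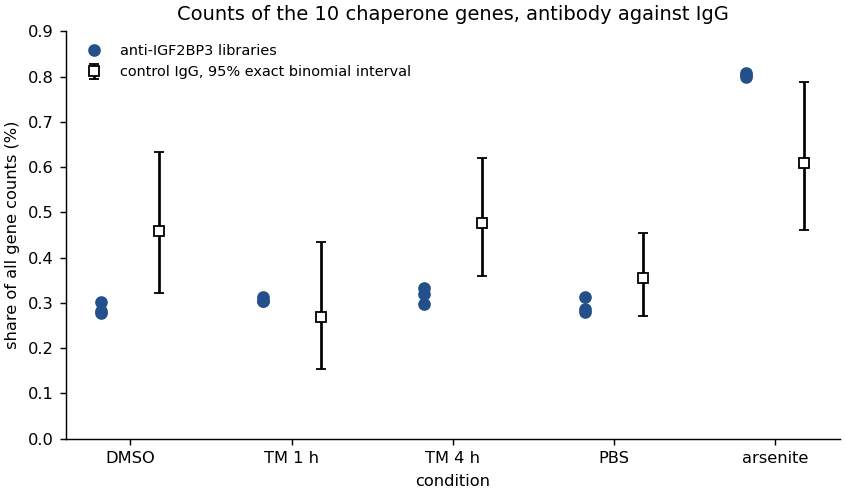
Share of all gene counts held by the 10 chaperone genes (y axis, percent) in each condition, with dots for the 3 anti-IGF2BP3 libraries and open squares for the 1 IgG library with its exact 95% binomial interval. The anti-IGF2BP3 libraries lie above the IgG interval in arsenite (0.803% against an upper bound of 0.788%) and below it in DMSO and TM 4 h.

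DNAJB1 was also higher in the arsenite IgG library, at 13 of 9366 counts or 0.139% (exact interval 0.0739% to 0.237%), than in the PBS one, at 3 of 17503 or 0.0171% (0.00353% to 0.0501%). The IgG libraries of DMSO, TM 1 h and TM 4 h had 0.102% (0.0439% to 0.2%), 0.0334% (0.00405% to 0.121%) and 0.0866% (0.0416% to 0.159%). Their intervals overlap the arsenite one but rest on 8, 2 and 10 counts and on another library set. They cannot show whether the IgG share was particular to arsenite. BAG3 had 0 of 9366 counts in the arsenite IgG library, where 3 counts would be 0.032% and the exact upper bound is 0.0394%, and 0.0476% to 0.0498% in the 3 anti-IGF2BP3 libraries of that condition. HSPB1 had 0 counts in all 5 IgG libraries, where 3 counts would be 57.4 CPM of the raw totals, and 57.3 CPM in the antibody libraries, so no fold can be given. In a fit over all 20 libraries with condition as a covariate, 2 of 8 genes were called higher with the antibody, against 7.43% of 7022 genes higher and 0.854% lower. The median log2 difference was 0.59 over the 8 and 0.71 over all genes on this scale, so the typical gene was itself shifted towards the antibody. They were HSP90AA1 (log2 difference 0.60, SE 0.16, adjusted p = 0.00873) and HSPB1 (adjusted p = 0.0493), whose IgG counts were all 0. The HSP90AA1 call was lost without the TM 1 h IgG library (adjusted p = 0.0665), without the arsenite one (adjusted p = 0.316) and at a mean count of at least 50 (adjusted p = 0.93), in a range of 9.56e-05 to 0.97. Its direction turned with DESeq2, library totals and RLE scaling (log2 differences -0.043, -0.052 and -0.038), and the HSPB1 call in 8 of 10 alternatives. With library totals as the scale no gene of the 8 was called higher, and HSP90AB1 was called lower (log2 difference -0.76, adjusted p = 0.0251, range 0.00365 to 0.945).

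Clusters, stretches of overlapping reads with T-to-C conversions that the authors called in each library, showed where along the RNAs the reads lay. The deposited sequences of all 539 clusters inside promoter windows were identical to GRCh38.p14 at their coordinates, so clusters were placed on RefSeq genes of that build by position and strand. The 8 genes with counts above the filter held 1009 clusters in the anti-IGF2BP3 libraries and 1 in the IgG libraries, and no cluster lay on their opposite strand. Over the whole genome the anti-IGF2BP3 libraries held 3579 to 63287 clusters each and the IgG libraries 33 to 180. The counts of 1009 and 1 therefore follow these totals and show no enrichment by the antibody. Joined over libraries, the anti-IGF2BP3 clusters of these genes formed 102 regions. Of these, 15 were present in at least 14 of the 15 libraries and 24 in 1 library. Another 16 were present in at least 2 arsenite libraries and in no other library, 6 of them in BAG3, 5 in DNAJB1, 4 in HSPH1 and 1 in HSP90AA1. The like share over all genes, or for the other conditions, was not computed, so this count is not read as particular to these genes. Clusters were called per library, so their presence follows depth as well as condition.

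PBS replicate 1 and arsenite replicate 1 had like depth, with 423906 and 414033 gene counts and 16430 and 15648 clusters over the whole genome. DNAJB1 had 7 clusters with 55 reads over 356 bases in the PBS library and 14 clusters with 967 reads over 1577 bases in the arsenite library. BAG3 had none in the PBS library and 12 clusters with 129 reads over 858 bases in the arsenite one. HSPH1 went from 282 to 598 covered bases, HSPA8 from 654 to 1237 and HSP90AA1 from 1241 to 1767. HSP90AB1 covered 1048 and 1289 bases, HSPB1 89 and 90, and DNAJA1 75 and 69. The coverage thus widened in this pair for the genes with the larger changes in counts and hardly differed for HSPB1 and DNAJA1. It also widened for HSP90AB1, whose log2 fold change in counts of 0.35 was below those of HSPB1 (0.45) and DNAJA1 (0.62). The pair was alike in library depth but not in reads per gene, with 140 and 299 for HSPA8 and 17 and 22 for HSPB1. Covered bases can grow with the reads on a gene, so the wider coverage is not separate from the counts. Whether binding spread along the RNAs was not tested.

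In DNAJB1 a region of 1249 bases that ended 20 bases from the annotated 3′ end held clusters in 14 libraries, all but PBS replicate 2. It held 100% of the DNAJB1 cluster reads in DMSO, TM 1 h, TM 4 h and PBS, which had 474, 466, 515 and 87 reads in all. In arsenite it held 4509 of 5007 reads or 90.1%. The other arsenite reads lay in 8 regions further upstream, 5 of which were in all 3 arsenite libraries. With far fewer reads in the other conditions, a like upstream share could go without a called cluster. The region's upstream edge was also set by arsenite clusters, so these shares do not show that the positions differed. In BAG3 the region nearest the 3′ end, 290 bases long, held 320 of 872 reads or 36.7% in arsenite and 77.3%, 85.9% and 88.3% in DMSO, TM 1 h and TM 4 h, which had 110, 99 and 60 reads in all. Another BAG3 region, 158 bases long, began 304 bases from the gene's start and held 48 reads in the 3 arsenite libraries. No PBS library had a BAG3 cluster. Whether these stretches are exons, introns or untranslated regions was not analysed here.

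**Figure D4:**
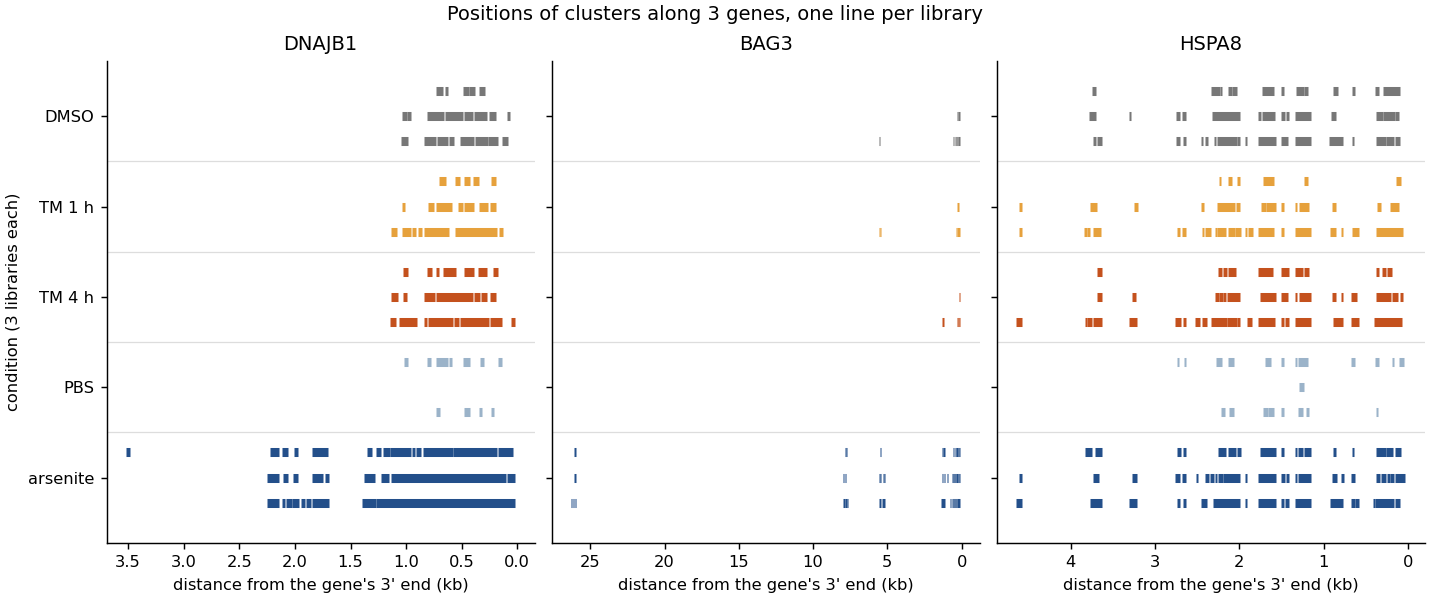
Positions of clusters (x axis, distance from the annotated 3′ end in kb) in DNAJB1, BAG3 and HSPA8, 1 line per library and 3 libraries per condition (y axis). In DNAJB1 the libraries of the other 4 conditions have clusters in the last 1249-base region alone, and the 3 arsenite libraries have 5 common regions upstream of it. All 13 BAG3 regions have a cluster in at least 1 arsenite library. The arsenite libraries also hold more cluster reads on DNAJB1 and BAG3.

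The 21 bases around the position that the cluster lists give as a cluster's mode show what the sequences in clusters look like. Sites from the clusters with the most reads are given beside sites from regions seen in arsenite libraries alone. The triplet CAT, part of known IGF2BP motifs, is in capitals. The read numbers are those of the whole cluster, not of the 21 bases. The DNAJB1 and HSP90AA1 clusters with the most reads spanned 1247 and 756 bases.

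DNAJB1, most reads (2379), chr19:14515908-14515928, minus strand: ccccaaggactgaccagggac
DNAJB1, arsenite only (39 reads), chr19:14516973-14516993, minus strand: tctttcagctacaCATtcCAT
BAG3, most reads (132), chr10:119677599-119677619, plus strand: gactggaggggtagatgggga
BAG3, arsenite only (30 reads), chr10:119672590-119672610, plus strand: caggagcagcacgccactcca
HSP90AA1, most reads (1586), chr14:102081754-102081774, minus strand: actgaagaaatgccacccctt
HSP90AB1, most reads (359), chr6:44253755-44253775, plus strand: gtgtcaagcccCATtccctct

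The upstream DNAJB1 site held CAT in 2 places and the HSP90AB1 site in 1, while the other 4 held none. Over all windows of this kind in the 8 genes, 116 of 335 or 34.6% held CAT, against 40.4% of 110170 windows over the whole genome. Windows of the same site recur in different libraries, so they are not independent.

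HSPA8 hosts small nucleolar RNA genes, and 3 of its 14 regions lay on them (SNORD14C, SNORD14D and SNORD14E). These held 26 of 235 HSPA8 cluster reads or 11.1% in PBS and 136 of 1734 or 7.84% in arsenite, and 9.96% to 13.1% in the TM groups and DMSO. The reads outside them numbered 209 in PBS and 1598 in arsenite, in libraries with a different total depth. The HSPA8 changes above are from the gene counts, and whether those include reads of the small RNAs is not given in the sources used here.

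The T-to-C conversion share of the clusters in these genes was first taken as conversion events over all events in a library's clusters, and on that measure treated and control libraries overlapped in each comparison. It was 9.13% ± 0.211 (SD, n = 3) in arsenite and 8.91% ± 0.238 in PBS, a difference of 0.221 percentage points (two-sided exact permutation test, p = 0.4, adjusted over the 3 comparisons 0.6). It was 8.57% ± 0.497 in DMSO, 8.17% ± 0.152 in TM 1 h (difference -0.407, exact permutation p = 0.3, adjusted 0.6) and 8.84% ± 0.444 in TM 4 h (difference 0.264, exact permutation p = 0.7, adjusted 0.7). As a mean over clusters, which gives each cluster the same weight, the arsenite libraries were at 11.8%, 12.1% and 12.5% and the PBS libraries at 10.4%, 8.88% and 10.6%. These groups did not overlap, with a difference of 2.14 percentage points (exact permutation p = 0.1). On the first measure with only clusters of at least 10 reads, the arsenite difference was 0.187 (exact permutation p = 0.4). There the TM 1 h libraries, at 7.855% to 7.984%, lay below the DMSO ones, at 8.057% to 8.901% (difference -0.490, exact permutation p = 0.1). With 3 against 3 libraries no p under 0.1 can be reached. Over all clusters of the genome the first measure differed by 0.684 for arsenite, -0.0993 for TM 1 h and 0.404 for TM 4 h.

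Reads in clusters gave a further measure per named gene, chosen after the data had been seen, and allowed other chaperone genes to be read beside the 10. Under arsenite 5 of the 6 genes with a mean of at least 50 reads rose and HSP90AB1 did not pass (log2 fold change 0.43, adjusted p = 0.0643 by the edgeR test). That mean was over the PBS and arsenite libraries together, and DNAJA1 and HSPB1 fell below it. DNAJB1, HSPH1 and BAG3 had PBS means of 29, 26.7 and 0 reads, so they entered through their arsenite reads. The count of 5 and the median over the 6 therefore lean on the filter. Of all 1040 genes that passed the same filter, 16.2% rose and 11.5% fell. DNAJB1 rose 24.7-fold on this measure, with PBS replicate 2 at 0 reads, and 21.3-fold without that library. In that fit the same 5 genes passed, and HSP90AB1 again did not (adjusted p = 0.0558). With all libraries HSPA8 rose 3.07-fold, small RNA reads included. BAG3 had 1140 ± 62.1 RPM (reads scaled to the TMM-adjusted total of the genes tested on this measure; SD, n = 3) in arsenite and 0 in all 3 PBS libraries, so no fold is given. The median log2 fold change was 1.80 over the 6, a fitted value for BAG3 included, and 0.13 over all genes. At TM 4 h none of 5 genes passed, and 1 had an unadjusted p under 0.05, where 0.447% of 1789 genes rose.

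Of 60 further chaperone pathway genes looked up, 49 could be placed on a strand. Other HSF1-inducible genes had 2 of 17 members tested under arsenite, HSPD1 (log2 fold change -0.39, adjusted p = 0.171), the mitochondrial HSP60, and DNAJB6 (log2 fold change -0.89, adjusted p = 0.149), and neither passed. Of the HSP70 and HSP90 cochaperones 3 of 19 were tested and PTGES3, the HSP90 cochaperone p23, fell (log2 fold change -0.55, SE 0.15, adjusted p = 0.0282). Of the HSF factors HSBP1, a small protein known to bind and restrain HSF1, was the 1 of 3 tested and fell from 998 ± 97.3 to 246 ± 18.1 RPM (log2 fold change -2.02, SE 0.23, adjusted p = 0.00103). Of TRiC and prefoldin, the cytosolic chaperonin and its helper, 3 of 14 were tested and 0 passed, with 1 at an unadjusted p under 0.05. Some of these outcomes turned on PBS replicate 2, the shallowest library. Without it DNAJB6 was called lower (log2 fold change -1.06, adjusted p = 0.0134), and the TRiC subunits TCP1 (1.15, adjusted p = 0.00677) and CCT2 (0.60, adjusted p = 0.0434) were called higher, while PTGES3 and HSBP1 were called lower in both fits. With all libraries the median log2 fold changes were -0.64, -0.42 and 0.49 for the inducible genes, the cochaperones and TRiC with prefoldin, beside 0.13 over all genes. At TM 1 h and TM 4 h, where 7, 6, 6 and 1 genes of these 4 lists were tested, the edgeR test called 0, with 1 and 3 genes at an unadjusted p under 0.05.

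The HSP70 and HSP90 relatives of other compartments were read last. At TM 4 h HSPA5, the HSP70 of the endoplasmic reticulum, rose from 383 ± 91.7 to 2261 ± 683 RPM (SD, n = 3) (log2 fold change 2.61, SE 0.26, adjusted p = 0.000416). HSP90B1, the HSP90 of that compartment, rose from 131 ± 23.6 to 797 ± 135 (log2 fold change 2.62, SE 0.26, adjusted p = 0.000416). These were 2 of the 4 relatives tested (median log2 fold change 1.63, beside -0.01 over all genes), and their cytosolic counterparts HSPA8 and HSP90AA1 had log2 fold changes of 0.02 and 0.12 on the same measure. Whether these changes differ was not tested. Under arsenite HSPA5 did not pass (log2 fold change 0.21, adjusted p = 0.593), and HSP90B1 was called higher with 0 reads in 2 of 3 PBS libraries. Without PBS replicate 2 the mitochondrial HSP70 gene HSPA9 was called higher as well (log2 fold change 1.00, adjusted p = 0.0384), against an adjusted p of 0.175 with it.

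Across the 15 anti-IGF2BP3 libraries the profile of DNAJB1 in log2 CPM was most like that of BAG3 among 3337 genes (Pearson r = 0.978). HSP90AA1 ranked 6 (r = 0.956), HSPH1 34 (r = 0.923), HSPA8 103 (r = 0.874), DNAJA1 269 (r = 0.771) and HSP90AB1 658 (r = 0.527). The nearest genes outside the 10 were ENSG00000169564_7 (r = 0.973) and ENSG00000109606_13 (r = 0.972), which the tables used here do not pair with symbols. On reads in clusters, over 1521 named genes, the nearest outside the 10 were MLLT10, TFG, RPF1, SEC31A and ATF3, with r from 0.945 to 0.958. These correlations are descriptions, computed with the 3 arsenite libraries included, and PBS and arsenite libraries share a library set. The like comparison for HSPA1A and HSPA1B is void, since their summed counts reached 7 at most.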

How the data were processed

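PAR-CLIP libraries of HCT116 cells were analysed from the authors' deposited table of raw read counts per gene and from 1 deposited list of clusters per library. The lists give, per the file headers, read counts and counts of conversion events. The submitters' processing notes name bcl2fastq 2.20.0.422, UMI-tools 1.1.1, Trimmomatic 0.30, Bowtie 0.12.7 and featureCounts 2.0.1, with builds GRCh38.p13 and hg38. The cluster caller and the handling of reads shared by near-identical genes are not given in the sources used here.

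The test of counts was that of edgeR 4.0.16, run in R 4.3.3 (filterByExpr, TMM, quasi-likelihood, two-sided, Benjamini-Hochberg over all genes tested, threshold 0.05), with SE as the log2 fold change divided by the square root of F. DESeq2 1.42.0 was an alternative. The TM groups shared 1 fit. Clusters were assigned to 15843 protein-coding RefSeq genes with a known strand by their midpoint, and 70.6% fell in 1 gene. The scripts were tested on simulated data, where the fit of antibody against IgG made false calls with nothing changed and the other fits made none, so calls against IgG carry less weight. With 200 genes changed 2-fold, the comparisons of 2 treatment groups recovered 43.5% to 48% of them and the difference of changes 11%. These fits then made 1 to 3 false calls. A gene that did not pass may therefore still have changed. All 15 replicate pairs differed by more than sampling noise (largest chi-square p = 8.81e-23). Same-numbered libraries of 2 groups did not deviate together (correlations -0.116 to 0.0903), so replicate numbers were not used as pairs. The members and lists were chosen with earlier results of these data known. All 10 members were named in the comparisons whether they passed or not, beside the genes most like DNAJB1 and list genes that passed.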

Additional observations from a re-analysis of the deposited data

Results flagged for a closer look

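Differences between treatments or times that passed a test of the difference itself (edgeR's quasi-likelihood test, Benjamini-Hochberg adjusted) are listed here with their log2 values and without explanation. In the direct comparison of 4 h with 1 h of tunicamycin, HSP90AB1 differed by 0.72, DNAJA1 by -0.71, BAG3 by -0.72, HSPH1 by -0.45 and DNAJB1 by -0.61. HSP90AB1 was higher at 4 h in all 3 libraries and the other 4 genes were lower in all 3. Between arsenite and 4 h of tunicamycin, each set against its own vehicle, DNAJB1 differed by 3.72, BAG3 by 3.15, HSPH1 by 1.80, HSPA8 by 1.21, HSP90AA1 by 1.00 and DNAJA1 by 0.75. Library set and stress are confounded here, and they cannot be told apart beyond what each vehicle removes. Groups of 3 libraries were too small for a check of single outlying libraries.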

How the results depend on the processing

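Of 729 values of single genes under alternatives, 668 kept their direction and side of the threshold, 26 lost a call, 9 gained one and 26 changed sign. Of the 117 for arsenite against PBS, 114 kept both and 3 lost the call. For TM 1 h against DMSO 0 genes were called with DESeq2, within the set of replicates 1 and 2 and on reads in clusters (1 gene there had an unadjusted p under 0.05), and 0 to 1 when a replicate was left out. For TM 4 h against DMSO 2 were called in the fit of all 15 libraries, 0 on reads in clusters, and 1 to 2 when a replicate was left out. Leaving out a replicate gave 3 to 5 calls for TM 4 h against TM 1 h, 6 to 7 for arsenite and 5 to 6 for the difference of changes. For the antibody against IgG 1 was called with DESeq2, library totals and RLE, 0 at a mean count of at least 50, and 0 to 3 when an IgG library was left out.

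Signs changed in HSPB1 at TM 1 h (0.050 in the set of replicates 1 and 2, and -0.28 to 0.12 when a replicate was left out, positive without TM 1 h replicate 3) and from 1 h to 4 h (-0.37 to 0.030, positive without TM 1 h replicate 1). At TM 4 h HSPA8 was at -0.024 without the filter, -0.085 in the set of replicates 1 and 2, and -0.060 to 0.045 when a replicate was left out, negative without DMSO replicate 2, DMSO replicate 3 or TM 4 h replicate 3. DNAJA1 ran from -0.28 to 0.058, positive without DMSO replicate 3, and DNAJB1 at 0.083 on reads in clusters. Against IgG, HSPA8 was at -0.18 with DESeq2, -0.20 with library totals, -0.18 with RLE and -0.074 at a mean of at least 50. HSPH1 was at -0.080, -0.10 and -0.078 and HSP90AA1 at -0.043, -0.052 and -0.038 with DESeq2, library totals and RLE. DNAJB1 was at -0.73, -0.26 and -0.21 with these, -0.066 at a mean of at least 50 and -0.69 to 0.86 when an IgG library was left out, negative without the arsenite one, and HSP90AB1 at 0.060 without the filter. The conversion share at TM 4 h changed sign to -0.12 as a mean over clusters, and the arsenite difference grew from 0.22 to 2.14. Leaving out a replicate gave -0.61 to -0.13 for TM 1 h, 0.062 to 0.54 for TM 4 h and 0.088 to 0.33 for arsenite. The causes were not tested.

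With the replicate number as a block, 1, 1, 5, 7 and 6 genes were called at TM 1 h, at TM 4 h, between the times, under arsenite and for the difference of changes, the same counts as without the block. The replicate numbers pair no cultures in the labels. Precision was limited by depth in HSPB1, DNAJA1, BAG3 and HSPA1B and in the IgG libraries.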
